A study of Mus musculus with 7 samples.

Results

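Short-chain and long-chain fatty acids, lactate, ketone bodies and succinate act on fat cells through a small group of cell-surface receptors, and 9 of these receptor genes are described here in white adipocytes with and without Ffar2. They are the free fatty acid receptors Ffar1, Ffar2, Ffar3 and Ffar4, the hydroxycarboxylic acid receptors Hcar1 and Hcar2, the succinate receptor Sucnr1, the medium-chain fatty acid receptor Gpr84 and the receptor Gpr35. They were chosen by name as G protein-coupled receptors for fatty acids and metabolites, and all 9 were found among the 57010 gene identifiers of the count table. Of the 9, 6 passed the filter on low counts and were tested between genotypes (Ffar2, Ffar4, Hcar1, Hcar2, Sucnr1 and Gpr35), and 3 did not (Ffar1, Ffar3 and Gpr84).

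RNA was sequenced from mature adipocytes freed from perigonadal fat with collagenase. Controls were 3 FFA2 fl/fl mice, and they were compared with 4 Adipoq-F2-KO mice, which carry the same floxed FFA2 alleles together with the Adiponectin-Cre transgene. All 7 mice were males aged 20 weeks by the sample labels and ate Teklad LM-485 chow with no other treatment (the study's text gives another age for its chow-fed cohort). Control mice were littermates, so both genotypes share the floxed allele and differ in the transgene, which recombines FFA2 where the adiponectin promoter is active and leaves the gene in place in immune, vascular and other cells of the pad. The labels name each library as a separate sample of mice and give no litter or day, so p-values measure the spread between these samples. The comparison of genotypes asks whether any other receptor for a fatty acid or metabolite was higher where Ffar2 was deleted.

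As background, these receptors sense nutrients and metabolic by-products outside the cell and signal through heterotrimeric G proteins. In fat cells, receptors coupled to Gi lower cyclic AMP and so restrain the release of stored fatty acids, and Hcar1 and Hcar2 are the classical examples, answering to lactate and to 3-hydroxybutyrate or nicotinic acid. FFA2, the product of Ffar2, answers to acetate and propionate, and FFA3, the product of Ffar3, to propionate and butyrate. Several of the receptors, among them FFA2, GPR84, SUCNR1 and GPR35, are also known from immune cells.

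The free fatty acid receptor genes lie in part side by side in the genome. In the coordinates of the deposited table, which are not those of GRCm38, Ffar2 (ENSMUSG00000051314) spans chromosome 7 from 30517773 to 30523200 on the minus strand, Ffar3 spans 30553755 to 30555603 and Ffar1 spans 30556815 to 30560989. The gap between Ffar2 and Ffar3 is 30554 bases and that between Ffar3 and Ffar1 is 1211 bases. Ffar4 lies apart on chromosome 19, from 38085519 to 38102711 on the plus strand. The promoter sequences of these 4 genes are shown because 3 of them are neighbours, yet only Ffar2 of the 3 was well above the detection limit in these adipocytes. Each is 300 bases of the GRCm38.p6 assembly from RefSeq, 250 before and 50 from the annotated start, read 5′ to 3′ on the strand of the gene, with motif matches in capitals.
Ffar2 (chr7:30823726-30824025, minus strand, the most upstream of 4 annotated starts): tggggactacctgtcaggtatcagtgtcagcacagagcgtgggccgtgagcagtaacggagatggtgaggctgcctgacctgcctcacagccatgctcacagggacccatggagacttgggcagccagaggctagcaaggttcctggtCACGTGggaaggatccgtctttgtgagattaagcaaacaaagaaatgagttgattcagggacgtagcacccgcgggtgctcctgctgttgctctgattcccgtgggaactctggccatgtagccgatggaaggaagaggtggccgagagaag
Ffar3 (chr7:30856129-30856428, minus strand): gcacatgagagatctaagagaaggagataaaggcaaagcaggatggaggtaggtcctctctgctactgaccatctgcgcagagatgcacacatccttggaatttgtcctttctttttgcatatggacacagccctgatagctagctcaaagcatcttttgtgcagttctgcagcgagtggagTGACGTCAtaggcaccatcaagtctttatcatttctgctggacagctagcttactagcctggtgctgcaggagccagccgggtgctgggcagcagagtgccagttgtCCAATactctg
Ffar1 (chr7:30861421-30861720, minus strand): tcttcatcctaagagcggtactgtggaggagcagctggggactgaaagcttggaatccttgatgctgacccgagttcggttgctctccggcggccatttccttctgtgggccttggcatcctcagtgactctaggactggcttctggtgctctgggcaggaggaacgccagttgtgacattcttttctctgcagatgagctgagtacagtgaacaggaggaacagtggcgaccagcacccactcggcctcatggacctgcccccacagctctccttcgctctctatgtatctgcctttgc
Ffar4 (chr19:38096829-38097128, plus strand): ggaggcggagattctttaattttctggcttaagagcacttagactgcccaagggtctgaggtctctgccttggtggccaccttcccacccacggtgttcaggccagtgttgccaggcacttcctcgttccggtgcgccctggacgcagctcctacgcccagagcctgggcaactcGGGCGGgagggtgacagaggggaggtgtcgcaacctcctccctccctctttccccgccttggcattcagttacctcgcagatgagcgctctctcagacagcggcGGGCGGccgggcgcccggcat
The motifs searched on both strands were the GC box GGGCGG, the E-box CACGTG, the CCAAT box CCAAT, the TATA box TATAAA, the cAMP response element TGACGTCA and the PPAR-RXR direct repeat, which is AGGNCA in 2 copies with 1 base between them. None of these overlapped another in the windows printed here. Counting the start as position 1, the Ffar2 window holds an E-box at -102. The windows of the other 3 Ffar2 starts hold no E-box and have 3 CpG dinucleotides each, and starts 3 and 4 hold a GC box and a CCAAT box. Which start is used in these adipocytes was not tested. The Ffar3 window holds a cAMP response element at -68 and a CCAAT box at 40, the Ffar4 window holds GC boxes at -75 and 30, and the Ffar1 window holds none of the 6 motifs. Among 32851 promoters of the same length, 7.15% held the E-box, 1.79% the cAMP response element, 37.4% the CCAAT box and 35.7% the GC box. The PPAR-RXR repeat, found in 0.381% of promoters, had no match in the windows of the 8 receptor genes for which a promoter was at hand (Hcar2 had none). Ffar4 had the most CpG dinucleotides of the 4 windows, 19, against 11 in the Ffar2 window shown, 9 in Ffar1 and 4 in Ffar3, with a median of 7 over all promoters.

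To compare transcript levels between genes, normalized CPM (counts scaled to library size with TMM factors) were divided by each gene's summed exon length in kilobases, giving normalized RPKM. In FFA2 fl/fl adipocytes 5 of the 9 receptors lay above 10 RPKM. Sucnr1 had 42.4 ± 4.05 RPKM (SD, n = 3), Hcar2 40.0 ± 11.5, Hcar1 31.5 ± 6.21, Ffar4 28.8 ± 4.93 and Ffar2 12.4 ± 0.992. Neighbours among the first 4 in this order could not be separated, since their libraries overlapped and each gene was above the next in 2 of the 3 libraries. Ffar4 stood 2.33-fold above Ffar2, and their libraries did not overlap. Ffar2 stood 78.8-fold above Gpr35, at 0.157 ± 0.0267 RPKM. Gpr84 (0.0493 RPKM) and Ffar1 (0.0244 RPKM) were at or near the detection limit, and Ffar3 had no counts.

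Among the tested genes ranked by RPKM in FFA2 fl/fl, Sucnr1 was at the 94.2 percentile and Ffar2 at the 81.2 percentile. Gpr35 was at the 9.56 percentile. Without division by length the order of the first 4 became Hcar1, Hcar2, Sucnr1 and Ffar4, and Ffar2 and Gpr35 kept positions 5 and 6. With FFA2 fl/fl library 1 or 3 left out, Hcar2 came before Sucnr1, and the positions from Hcar1 down were as above.

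**Figure D1:**
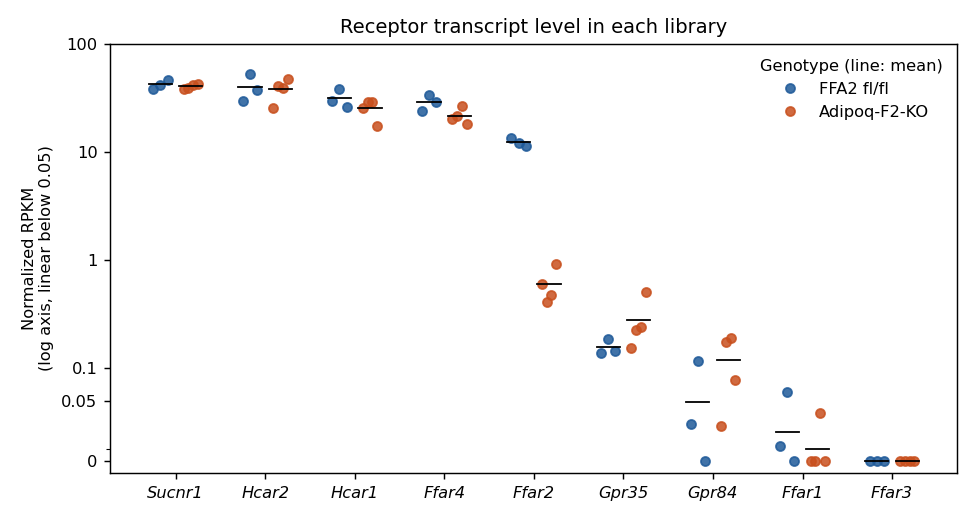
Normalized RPKM of the 9 receptor genes (vertical log axis, linear below 0.05) in each of the 3 FFA2 fl/fl (blue) and 4 Adipoq-F2-KO (orange) libraries, with black lines at the group means, genes ordered by the FFA2 fl/fl mean. Ffar2 fell from 12.4 to 0.604 RPKM while the points of Sucnr1, Hcar2, Hcar1 and Ffar4 overlapped between genotypes.

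The targeted gene Ffar2 was lower in every Adipoq-F2-KO library. It had 37.5, 33.9 and 32.0 normalized CPM in FFA2 fl/fl libraries 1 to 3 and 1.68, 1.15, 1.33 and 2.58 in Adipoq-F2-KO libraries 1 to 4. The genotypes did not overlap, and Adipoq-F2-KO library 4 kept the most Ffar2. The log2 fold change (Adipoq-F2-KO over FFA2 fl/fl) was -4.36, with a standard error of 0.22, a 95% interval from -4.85 to -3.88 and an adjusted p of 7.97e-06 in edgeR's quasi-likelihood test. As a percentage this was a change of -95.1% (95% interval -96.5% to -93.2%). An exact two-sided permutation test gave p = 0.0286, the smallest that 3 libraries against 4 allow. Of the 17039 tested genes, 1.02% were called in either direction at an adjusted p under 0.05 and 0.217% were called lower, and Ffar2 was the 1 receptor called.

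Ffar2 transcripts were still counted in each Adipoq-F2-KO library. Relative to the FFA2 fl/fl mean, the level was 4.87%, 3.35%, 3.85% and 7.48% in Adipoq-F2-KO libraries 1 to 4. All 4 values lay above the detection limit of their library, where 3 fragments (6 counts, since both mates of a pair appear to have been counted) corresponded to 0.151 to 0.204 CPM over the 7 libraries. In these bulk samples fewer cells of a type and less RNA per cell cannot be told apart. The summed level of 30 macrophage marker genes was 734 to 896 CPM in FFA2 fl/fl and 998 to 1207 CPM in Adipoq-F2-KO. The highest sum was in library 4, the library with the most remaining Ffar2. In libraries 1 to 3 the sums (1037, 998 and 1140 CPM) did not follow the order of Ffar2. Summed endothelial markers in Adipoq-F2-KO libraries 1 to 4 (3150, 2699, 2709 and 4210 CPM) had the same order as Ffar2. Sums of fibroblast progenitor markers (2522, 2876, 2601 and 2945 CPM) and erythroid markers (254, 240, 225 and 385 CPM) did not. With 4 libraries and several lists looked at, a match of order carries little weight. Library 4 was also the lowest in summed adipocyte markers, at 47130 CPM. Adgre1 and Csf1r, which define macrophages, were counted in every library. The summed level of 22 neutrophil markers was 54.98 to 67.6 CPM against 78.4 to 92.8 CPM. Most of this sum came from Mxd1 (24.7 and 28.0 CPM on average) and Wfdc21 (20.05 and 27.7 CPM). S100a8 (2.26 and 1.99 CPM) and Elane (1.76 and 1.09 CPM) were lower in Adipoq-F2-KO, neither called. The defining markers Ly6g and Cd177 had 0 counts in all 7 libraries, so neutrophils were not detected by these 2 genes. The part of any cell type in the remaining Ffar2 was not tested.

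The other receptor for short-chain fatty acids, Ffar3, had 0 counts in all 7 libraries of both genotypes. A count of 0 allows up to 0.204 CPM or 0.110 RPKM in the shallowest library, for counting error only. At this depth Ffar3 was therefore not detectable with or without Ffar2. Its neighbour Ffar1, the receptor for medium-chain and long-chain fatty acids known from pancreatic beta cells, had 2, 10 and 0 counts in FFA2 fl/fl and 0, 0, 6 and 0 in Adipoq-F2-KO. Only FFA2 fl/fl library 2 exceeded the limit of 6 counts. In a fit without the filter on low counts, edgeR gave Ffar1 a log2 fold change of -1.21 (adjusted p = 0.837).

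To see whether the deletion went together with differences nearby, the 18 other genes within 100 kb of Ffar2 were examined. In all, 7 of them were tested and edgeR called 0, with 1 higher at an unadjusted p under 0.05 and 1 called higher by DESeq2. Over all 17039 tested genes edgeR called 1.02%, 1792 were higher and 1255 lower at that p, and DESeq2 called 656 higher and 199 lower. Sbsn, which encodes suprabasin, a protein of cornified epithelia, had 106 ± 18.5 CPM (SD, n = 3) in FFA2 fl/fl and 106 ± 24.6 (SD, n = 4) in Adipoq-F2-KO, a log2 fold change of 0.00 (standard error 0.17). Tmem147, encoding an endoplasmic reticulum membrane protein, had 30.9 ± 3.54 against 28.1 ± 4.64 CPM. The B cell receptor gene Cd22 had 1.54 ± 2.25 against 1.44 ± 0.709 CPM, and Tmem147os had 1.34 ± 0.561 against 1.49 ± 0.341 CPM. Gapdhs, the sperm-specific glyceraldehyde phosphate dehydrogenase, had 0.276 ± 0.222 against 2.00 ± 2.87 CPM (log2 fold change 2.85, adjusted p = 0.205). Markers of the epididymis and germ cells summed to 119 CPM in Adipoq-F2-KO library 2 and 55.4 CPM in library 3, and to at most 5.62 CPM elsewhere. The part of these cells in the Gapdhs value was not tested. Dmkn and ENSMUSG00000120950 stayed under 1 CPM on average in both genotypes.

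Ffar4, the receptor for long-chain unsaturated fatty acids, was the remaining free fatty acid receptor at a clear level. It had 33.4, 47.2 and 40.5 normalized CPM in FFA2 fl/fl and 28.3, 30.4, 37.4 and 25.7 in Adipoq-F2-KO. The highest and second highest values were FFA2 fl/fl libraries, but the genotypes overlapped. The log2 fold change was -0.41 (standard error 0.15, 95% interval -0.73 to -0.08), with an unadjusted p of 0.0190 and an adjusted p of 0.188 in edgeR, and the exact permutation p was 0.0857. Ffar4 was therefore not called, and the interval, which is not adjusted for the number of genes, reached no higher than 0.946 times the control level. In the fit on genes with at least 1 count it was called lower (adjusted p = 0.0396), and relative to Adipoq, itself lower by a log2 fold change of -0.23 (not called), the difference was -0.17 on the log2 scale (exact permutation p = 0.343).

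The hydroxycarboxylic acid receptors lie 11236 bases apart on chromosome 5, Hcar2 from 124001633 to 124003562 and Hcar1 from 124014799 to 124018083, both on the minus strand with 1 exon. Hcar1, the lactate receptor, had 97.9, 126 and 86.4 normalized CPM in FFA2 fl/fl and 84.5, 96.5, 96.1 and 57.5 in Adipoq-F2-KO. FFA2 fl/fl library 2 was the highest and Adipoq-F2-KO library 4 the lowest, with the others between. For Hcar1 the log2 fold change was -0.31 (standard error 0.18, 95% interval -0.70 to 0.08, adjusted p = 0.392 in edgeR). Without Adipoq-F2-KO library 4 it was -0.16, and without FFA2 fl/fl library 2 it was -0.14, neither called.

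Hcar2, the receptor for 3-hydroxybutyrate and nicotinic acid, had 57.4, 101 and 72.7 normalized CPM in FFA2 fl/fl and 49.5, 78.8, 76.4 and 91.0 in Adipoq-F2-KO. The genotypes overlapped over almost their whole range. The log2 fold change was -0.06 (standard error 0.21, 95% interval -0.52 to 0.40, adjusted p = 0.910 in edgeR), and its sign changed when FFA2 fl/fl library 2 (0.18) or Adipoq-F2-KO library 1 (0.09) was left out. Although they are neighbours, Hcar1 and Hcar2 did not keep 1 ratio over the libraries. The ratio of Hcar1 to Hcar2 in RPKM was 1.00, 0.732 and 0.698 in FFA2 fl/fl and 1.00, 0.720, 0.739 and 0.371 in Adipoq-F2-KO. Library 4 of Adipoq-F2-KO stood below the rest, being at once the lowest in Hcar1 and the highest of its genotype in Hcar2.

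Sucnr1, the receptor for succinate, varied little within either genotype. It had 63.5, 68.6 and 76.7 normalized CPM in FFA2 fl/fl and 63.4, 64.4, 68.9 and 69.8 in Adipoq-F2-KO, so that the libraries overlapped. The coefficient of variation was 9.55% and 4.82% within the genotypes, against 28.8% and 23.7% for Hcar2. Its log2 fold change was -0.06 (standard error 0.09, 95% interval -0.27 to 0.14, adjusted p = 0.768 in edgeR). This interval was the narrowest among the 6 tested receptors and runs from 0.830 to 1.10 times the control level. The sign was positive without FFA2 fl/fl library 3 (0.024).

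Gpr35, for which kynurenic acid is a proposed ligand, and Gpr84 were much lower. Gpr35 (chromosome 1 from 92878587 to 92914113, plus strand) had 0.668, 0.907 and 0.703 normalized CPM in FFA2 fl/fl and 0.753, 1.09, 1.16 and 2.44 in Adipoq-F2-KO. Adipoq-F2-KO library 4 stood above the rest, and library 1 overlapped the controls. Its log2 fold change was 0.83 (standard error 0.51, 95% interval -0.28 to 1.95), and it was not called (adjusted p = 0.418 in edgeR). The interval reached 3.86 times the control level, so a large increase could not be resolved at these counts, and its lower end was 0.824 times the control level. Without Adipoq-F2-KO library 4 the value was 0.40.

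Gpr84 (chromosome 15 from 103216662 to 103219039, minus strand) had 2, 8 and 0 counts in FFA2 fl/fl and 2, 10, 12 and 4 in Adipoq-F2-KO. Only 3 of the 7 libraries, FFA2 fl/fl library 2 and Adipoq-F2-KO libraries 2 and 3, lay above 6 counts. In the fit without the filter on low counts the log2 fold change was 1.23 (adjusted p = 0.746 in edgeR). An exon of the predicted gene Gm49482 overlaps Gpr84 on the other strand, and 633 of its 1676 stretches of 50 transcript bases also occur in another gene, so these few reads could not be assigned with certainty. Hcar1 and Hcar2 shared 0 such stretches with any gene, as did Ffar3, Ffar4 and Sucnr1. Ffar2 shared 9 of 2796, Ffar1 33 of 4113 and Gpr35 33 of 4830. The part of shared stretches in the counts of these 3 genes, and in the Ffar2 counts left in Adipoq-F2-KO, was not tested. The summed macrophage markers did not overlap between genotypes and were higher in Adipoq-F2-KO, and their part in the Gpr35 and Gpr84 values was not tested.

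**Figure D2:**
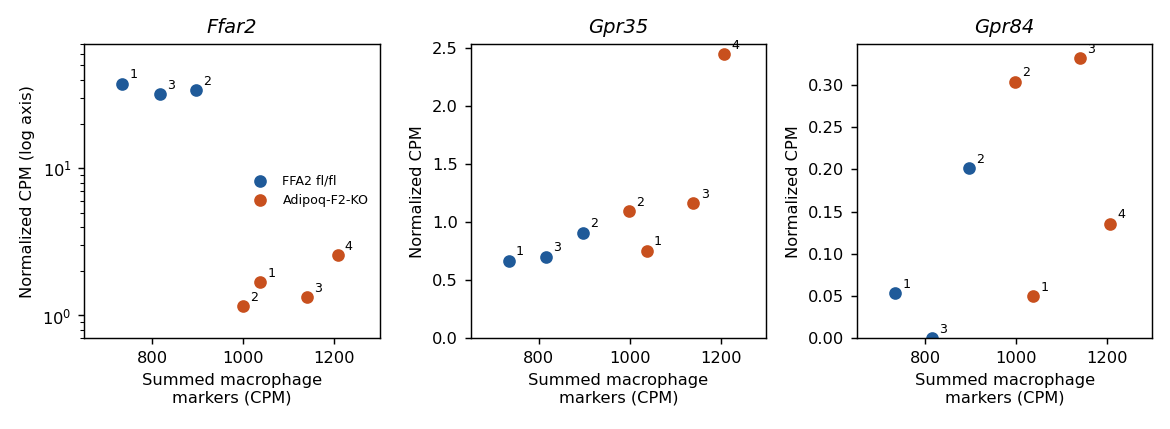
Normalized CPM of Ffar2 (log axis), Gpr35 and Gpr84 against the summed CPM of 30 macrophage marker genes in each library (numbers are replicates, blue FFA2 fl/fl, orange Adipoq-F2-KO). Adipoq-F2-KO library 4 had the highest marker sum, 1207 CPM, and the highest Gpr35, 2.44 CPM. Its Gpr84, at 0.136 CPM, was below that of Adipoq-F2-KO libraries 2 (0.304 CPM) and 3 (0.332 CPM).

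Across the 5 tested receptors other than Ffar2, edgeR called 0 in either direction, 1 was lower at an unadjusted p under 0.05 (Ffar4), and DESeq2 and limma voom called 0. Over all 17039 tested genes edgeR called 1.02%, DESeq2 called 656 higher and 199 lower, and limma voom called 208. At an unadjusted p under 0.05 in edgeR, 1792 of all tested genes were higher and 1255 lower. With so few receptors, 0 calls lies near these shares. Their upper 95% bounds were 0.946 times the control level for Ffar4, 1.06 for Hcar1, 1.10 for Sucnr1, 1.32 for Hcar2 and 3.86 for Gpr35. Between the 2 genotypes the libraries of 17.6% of all tested genes did not overlap, and among the tested receptors this held for Ffar2 alone. The median log2 fold change over all tested genes was 0.00.

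**Figure D3:**
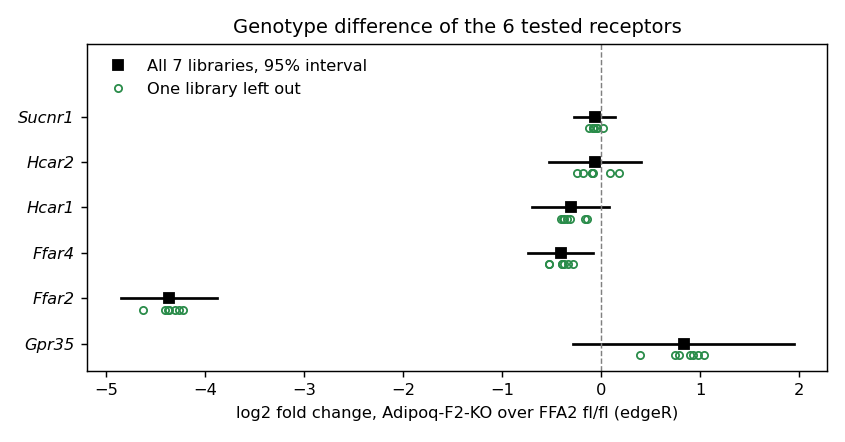
Log2 fold change of Adipoq-F2-KO over FFA2 fl/fl for the 6 tested receptors from edgeR (horizontal axis), with squares for the fit on all 7 libraries, bars for the 95% interval and open circles for fits with 1 library left out. Ffar2, at -4.36, stands apart, and the intervals of Hcar1, Hcar2, Sucnr1 and Gpr35 span 0.

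The RPKM of the 9 receptors were also summed in each library. In FFA2 fl/fl the sum was 136, 179 and 151 RPKM, of which Ffar2 made up 9.90%, 6.80% and 7.59%. In Adipoq-F2-KO it was 111, 132, 139 and 127 RPKM, and Ffar2 made up 0.543%, 0.314%, 0.344% and 0.727%. The sum of the other 8 receptors was 143 ± 22.4 RPKM (SD, n = 3) in FFA2 fl/fl and 126 ± 11.8 (SD, n = 4) in Adipoq-F2-KO. The libraries overlapped in this sum, which ran from 122 to 167 RPKM in FFA2 fl/fl and from 110 to 138 RPKM in Adipoq-F2-KO. Sucnr1, Hcar2, Hcar1 and Ffar4 together made up 89.96% to 93.0% of all receptor transcripts in FFA2 fl/fl and 98.8% to 99.4% in Adipoq-F2-KO.

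**Figure D4:**
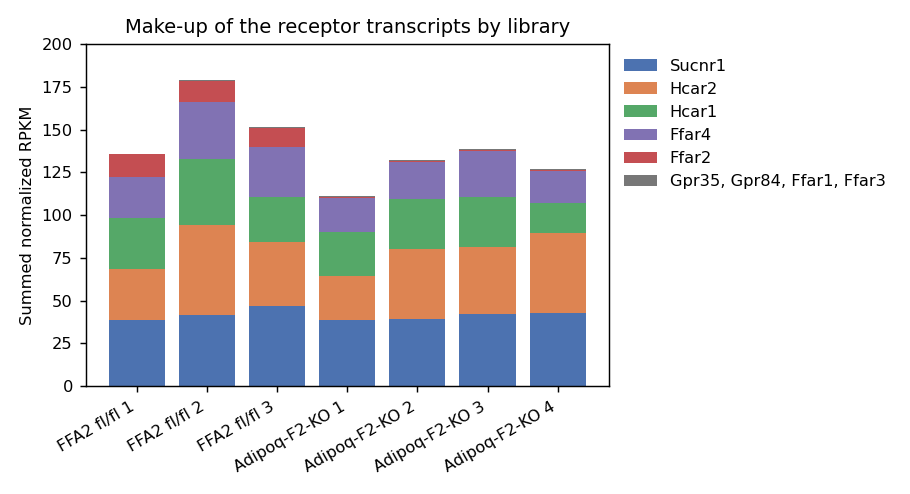
Summed normalized RPKM of the 9 receptor genes in each library, stacked by gene (bars start at 0). Ffar2 (red) made up 6.80% to 9.90% of the sum in FFA2 fl/fl and under 1% in each Adipoq-F2-KO library, and the sum of the other genes overlapped between genotypes.

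To describe which genes varied most like each receptor from mouse to mouse, the genotype means were subtracted and log2 CPM was correlated over the 7 libraries. The libraries differ in depth and cell make-up, which bears on all genes together. With 7 points 90 to 299 genes passed r = 0.9 for each receptor, so these are descriptions only. Aph1a, which encodes a gamma-secretase subunit, followed Ffar2 with r = 0.989, and Gm32856 did so with 0.991. Nudcd2 (0.982) and Rdm1 (0.978) followed Ffar4. Hcar1 was followed by Adprm (0.999) and by Jun (0.994), the AP-1 transcription factor gene. Hcar2 was followed by Gm29686 (0.996) and Nop58 (0.989), and Sucnr1 by Oip5 (0.995) and Mogat1 (0.995), which encodes a monoacylglycerol acyltransferase. Gpr35 was followed by Tut7 (0.998) and Icmt (0.989).

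For comparison, 62 other receptors, mainly for lipids and metabolites, were looked up, covering prostanoids, sphingosine 1-phosphate, lysophosphatidic acid, nucleotides, adenosine and cannabinoids. The list also holds receptors for other ligands, among them neuropeptide Y and catecholamines, and an orphan receptor. Of the 46 tested, 36 had a positive and 10 a negative log2 fold change, with a median of 0.43, and 2 were called, both higher. Over all tested genes 50.4% had a positive value and 1.02% were called, and without Adipoq-F2-KO library 4 the median of the list was 0.27. Many of the 46 averaged under 1 CPM in FFA2 fl/fl. Endothelial markers also had a positive value in 20 of 20 (median 0.42) and macrophage markers in 25 of 29 (median 0.61). The part of these cells in the values of the list was not tested. S1pr3, a sphingosine 1-phosphate receptor, rose from 12.4 ± 1.72 to 24.8 ± 7.22 CPM (log2 fold change 1.00, adjusted p = 0.0484 in edgeR). Ptafr, the receptor for platelet-activating factor, rose from 9.92 ± 2.59 to 19.2 ± 0.657 CPM (0.95, adjusted p = 0.0383). None was called lower. At an unadjusted p under 0.05 in edgeR 7 were higher and 4 lower, and DESeq2 called 3 higher and 1 lower. Over all 17039 tested genes, 1792 were higher and 1255 lower at that p, and DESeq2 called 656 higher and 199 lower. The number called higher fell to 0 when library 1 or 3 of FFA2 fl/fl or library 2 or 3 of Adipoq-F2-KO was left out and to 1 when library 2 of FFA2 fl/fl was, and it was 2 when library 1 or 4 of Adipoq-F2-KO was.

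The most abundant of these receptors by CPM did not pass the test. Gprc5b, an orphan receptor, had 102 ± 0.540 and 87.5 ± 9.46 CPM, the sphingosine 1-phosphate receptor gene S1pr1 had 70.3 ± 2.52 and 89.5 ± 12.9 CPM, and the prostaglandin E receptor gene Ptger3 had 64.8 ± 12.5 and 57.3 ± 17.3 CPM. Adora1, a Gi-coupled adenosine receptor of fat cells, had 73.0 ± 5.55 and 52.5 ± 5.36 CPM, with no overlap (log2 fold change -0.47, adjusted p = 0.0556 in edgeR). For 10 of the 46 the genotypes did not overlap, beside 17.6% of all tested genes.

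**Figure D5:**
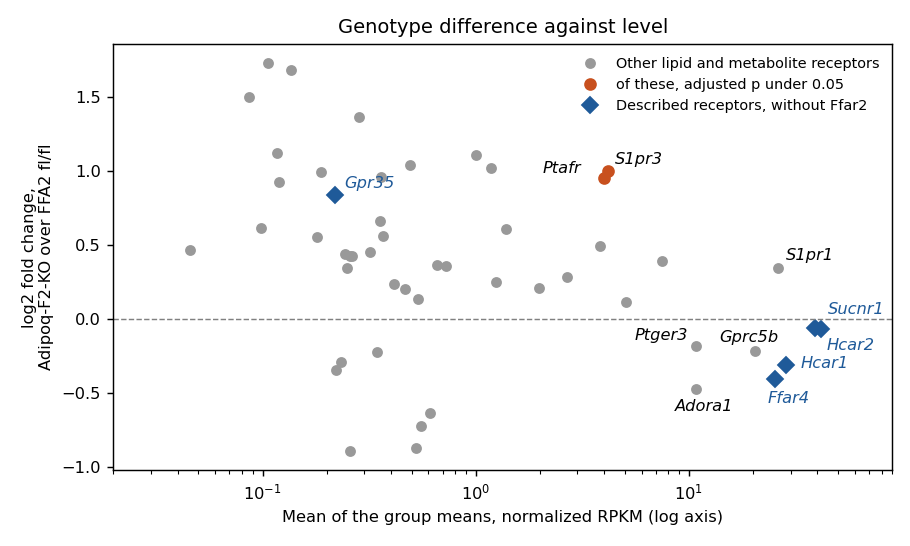
Log2 fold change of Adipoq-F2-KO over FFA2 fl/fl against level (mean of the group means in RPKM, log axis) for 46 other lipid and metabolite receptors (circles, orange where adjusted p is under 0.05) and the 5 tested receptors other than Ffar2 (blue diamonds). S1pr3 and Ptafr lie near 1, while Sucnr1, Hcar2, Hcar1 and Ffar4 lie between -0.41 and -0.06.

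The receptors act through G proteins, adenylyl cyclases and, in fat cells, the lipolytic enzymes, and 43 such genes were tested. The log2 fold change was positive for 15 and negative for 28, with a median of -0.07. Gng11, a G protein gamma subunit gene, was the 1 gene called, rising from 11.6 ± 2.02 to 22.2 ± 4.60 CPM (log2 fold change 0.94, adjusted p = 0.0396 in edgeR). The list had 0 calls with any 1 library left out other than Adipoq-F2-KO library 4. Over all tested genes 50.4% had a positive value and 1.02% were called. Of those 17039 genes, 1792 were higher and 1255 lower at an unadjusted p under 0.05, and DESeq2 called 656 higher and 199 lower. The genotypes did not overlap for 13 of the 43, beside 17.6% of all tested genes. None of the 43 was called lower in edgeR. At an unadjusted p under 0.05, 5 of them were higher and 10 lower, and DESeq2 called 2 higher and 2 lower. The most abundant were the triglyceride lipase gene Pnpla2 (3609 ± 161 and 3046 ± 524 CPM), the lipid droplet coat gene Plin1 (3043 ± 74.2 and 2421 ± 382), the hormone-sensitive lipase gene Lipe (2062 ± 24.6 and 1564 ± 200) and the monoglyceride lipase gene Mgll (1624 ± 84.8 and 1608 ± 158), and none of these passed the test.

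Genes that make, use or carry the ligands (acetate, lactate, ketone bodies, succinate, kynurenines and fatty acids) were also examined. Of 35 tested, 5 had a positive and 30 a negative log2 fold change, with a median of -0.18. Slc16a1, which encodes the monocarboxylate transporter MCT1 for lactate, ketone bodies and short-chain fatty acids, was the 1 gene called and rose from 52.5 ± 3.15 to 81.6 ± 12.0 CPM (log2 fold change 0.64, adjusted p = 0.0407 in edgeR). The list had 1 call without Adipoq-F2-KO library 1 or 4 and 0 without any of the other 5 libraries. No member was called lower in edgeR. At an unadjusted p under 0.05, 2 members were higher and 5 lower, and DESeq2 called 2 higher and 0 lower. Over all tested genes 50.4% had a positive value and 1.02% were called. Of those 17039 genes, 1792 were higher and 1255 lower at an unadjusted p under 0.05, and DESeq2 called 656 higher and 199 lower. The genotypes did not overlap for 11 of the 35, beside 17.6% of all tested genes. The most abundant members were Lpl (8101 ± 315 and 7511 ± 693 CPM), Fasn (6180 ± 2482 and 4666 ± 1796), Ldha (751 ± 35.6 and 723 ± 99.05) and Sdha (568 ± 31.7 and 498 ± 31.2), and none of these passed the test.

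Several facts of the whole data set bear on these values. Total counts per library ran from 30478997 to 39992605. Genes of the mitochondrial chromosome took 4.41% to 5.77% of the counts in FFA2 fl/fl and 6.61% to 10.3% in Adipoq-F2-KO, with no overlap and the highest share in Adipoq-F2-KO library 4. That library also had the largest share of ENSMUSG00000119584, an identifier without a symbol, at 6.76% against 0.619% to 3.75% in the other 6. The part of these shares in the receptor values was not tested. As a background for the marker lists that follow, 50.4% of all 17039 tested genes had a positive log2 fold change and 1.02% were called. At an unadjusted p under 0.05, 1792 of all tested genes were higher and 1255 lower, and DESeq2 called 656 higher and 199 lower. The summed level of 16 adipocyte markers was 60370 to 66400 CPM in FFA2 fl/fl and 47130 to 60760 CPM in Adipoq-F2-KO, and Adipoq itself had 3608 ± 155 and 3087 ± 519 CPM (log2 fold change -0.23, adjusted p = 0.386 in edgeR). Of these markers 3 had a positive and 13 a negative log2 fold change, and 0 were called (7 lower and 1 higher at an unadjusted p under 0.05, 3 called lower by DESeq2). Of 29 tested macrophage markers 25 had a positive log2 fold change and 3 were called higher (Lyz2, Cd68 and Cybb), with 19 higher and 1 lower at an unadjusted p under 0.05 and 12 called higher by DESeq2. Of 22 neutrophil markers only 9 could be tested. Of these 7 had a positive log2 fold change, 2 had a negative one (S100a8 and Elane) and 1 was called higher (Lcn2). At an unadjusted p under 0.05, 3 neutrophil markers were higher, and DESeq2 called 2 higher. In edgeR 0 genes of any kind were called higher when library 1 or 3 of FFA2 fl/fl was left out. Endothelial markers had a positive value in 20 of 20 (0 called), fibroblast progenitor markers in 17 of 20 (1 called, Icam1, with 10 higher at an unadjusted p under 0.05 and 4 called by DESeq2), erythroid markers in 7 of 7 (0 called), lymphocyte markers in 3 of 13 (0 called), mesothelial markers in 6 of 12 (0 called) and genes induced by dissociation in 13 of 22 (0 called). At an unadjusted p under 0.05, 14 endothelial markers and 2 erythroid markers were higher, and DESeq2 called 5 and 0 of them. The unadjusted counts were 1 higher among lymphocyte markers, 1 higher and 2 lower among mesothelial markers and 2 higher among dissociation genes, and DESeq2 called 0 in each of the 3 lists. Markers of the epididymis and germ cells had a positive value in 5 of 6 (0 called, 3 higher at an unadjusted p under 0.05, 2 called by DESeq2) and summed to 119 CPM in Adipoq-F2-KO library 2 and 55.4 CPM in library 3, against 0.410 to 5.62 CPM in the other 5 libraries. The part of these cells in the receptor values was not tested.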

How the data were processed

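RNA-Seq counts of adipocytes from 4 Adipoq-F2-KO mice and 3 FFA2 fl/fl controls were analysed here, with groups taken from the sample labels. The deposited values are whole-number counts per gene without normalization. Per the labels, the authors used Trimmomatic, STAR, featureCounts and DESeq2 and name GRCm38 (mm10), with no versions. Of 52081 identifiers shared with a GRCm38 annotation, 2.90% had the same start and 0 of the 9 receptors did, so gene coordinates are those of the deposited table. Symbols were found for 52029 identifiers. How the counting treated strand and overlapping genes is not given in the sources used here. Of counts from 1 to 49, 85.5% to 88.8% were even, as when both mates are counted.

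Genes were filtered with filterByExpr, scaled with TMM and tested for genotype, with no covariate, by the two-sided quasi-likelihood test of edgeR 4.0.16 (R 4.3.3), and p-values were adjusted by Benjamini-Hochberg over 17039 genes. A gene was called at an adjusted p under 0.05. Standard errors were obtained from the log2 fold change and the F statistic, and 95% intervals from the t distribution, unadjusted for the number of genes. DESeq2 1.42.0, limma voom 3.58.1, other filters and scalings, halved counts, a replicate block and leaving out each library were alternatives, and scaling to Adipoq was chosen after seeing the data. On counts simulated for this comparison (17039 genes, 200 changed by a log2 fold change of 1, 3 draws), edgeR recovered 57.0% with 3.35% false calls. DESeq2 recovered 60.0%, and 15.9% of its calls were false. For limma voom these shares were 54.8% and 3.49%.

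The receptors and gene lists were chosen with earlier results of these data known. Genes named are the 9 receptors, tested genes within 100 kb of Ffar2, the called and the 4 most abundant members of each receptor, signalling and ligand list, called members of the marker lists, the 2 genes that vary most like each tested receptor averaging 1 CPM or more, and Adipoq. Adgre1, Csf1r, Ly6g and Cd177 are named as defining markers. Mxd1, Wfdc21, S100a8 and Elane are named to show the make-up of the neutrophil list. Libraries of a genotype differed beyond sampling noise, with 37.8 to 147 chi-square units per degree of freedom, so all 7 were kept. The 50-base comparison used transcripts of a GRCm38 annotation.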

Additional observations from a re-analysis of the deposited data

Results flagged for a closer look

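In the 4 Adipoq-F2-KO libraries, normalized CPM of the receptors and named or marker genes were searched for a library far from the other 3. Of 66 groups of values, 7 had such a library. The nominal rate of about 1 in 20 is for independent groups, so 7 of 66 cannot be compared with it. All groups share the same 4 libraries, and 4 of the 7 are sperm genes high in the same library. Among the receptors the flagged gene was Ffar1, with 0.166 CPM (6 counts) in library 3 and 0 in the others. Where the other 3 libraries have 0, any count meets the rule, and 6 counts only equal the detection limit. Plin4, a lipid droplet coat gene, had 3640 CPM in library 4 against 4750 to 4870 in the others, and the endothelial gene Pecam1 had 404 CPM there against 248 to 274. The remaining 4 are sperm genes that were high in library 2, with Prm2 at 54.1 CPM, Tnp2 at 31.0 CPM, Prm1 at 19.7 CPM and Odf1 at 7.96 CPM, while the other libraries had at most 5.31 CPM of any of them.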

How the results depend on the processing

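Over the alternative fits, 74 log2 fold changes of the 6 tested receptors kept their direction and side of the threshold, 3 reversed and 1 passed the threshold. The number of genes called was 173 as reported, 888 with DESeq2, 1403 on genes with at least 1 count, and 1 to 178 with a library left out. The number of receptors called was 1 in each setting other than the fit on genes with at least 1 count, which called 2 (Ffar2 and Ffar4, the latter at -0.41, adjusted p = 0.0396 in edgeR, against 0.0971 to 0.428 in its other fits). Ffar2 was called in every alternative fit, from -4.64 to -4.22. The sign of Hcar2 and Sucnr1, neither called in any setting, reversed in some. Hcar2 ran from -0.24 to 0.18 with a library left out, positive without FFA2 fl/fl replicate 2 (0.18) and without Adipoq-F2-KO replicate 1 (0.09). Sucnr1 ran from -0.13 to 0.024, positive without FFA2 fl/fl replicate 3 (0.024). Scaled to Adipoq, Hcar2 and Sucnr1 were both at 0.18. Adipoq itself was at -0.23, so division by it raises the values of all receptors, and these signs follow from the scaling. Without division by gene length 5 of the 9 positions in the order stayed. Without Adipoq-F2-KO replicate 4, 8 of the ligand genes had a positive value, against 5. Ffar1, Ffar3 and Gpr84 gave no value in the reported fit, and no alternative gave one for Ffar3.

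The labels do not say whether the replicate numbers pair the mice, and the 3 correlations below cannot settle it. Deviations of same-numbered libraries from their genotype means correlated at 0.02, -0.02 and -0.02, and 1 of the 3 FFA2 fl/fl libraries correlated best with its own number. With the replicate block 224 genes were called, 130 of them among the 173, and Ffar2 was at -4.64. Depth limits Ffar1, Ffar3, Gpr84 and, in part, Gpr35, which had 24 to 72 counts per library.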
